A study of Mus musculus with 18 samples.

Results

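The myeloid translocation gene (MTG) family holds 3 transcriptional corepressor genes in the mouse, and all 3 were listed in the expression tables of intestinal crypts and enteroids. The genes were chosen by symbol: *Cbfa2t2*, which encodes MTGR1, *Cbfa2t3*, which encodes MTG16, and *Runx1t1*, which encodes MTG8. They are 3 of the 18838 genes that the tables of the 3 time points hold between them. MTG proteins do not bind DNA on their own. They bridge DNA-binding factors, among them E proteins, GFI1 and the Wnt pathway factor TCF7L2, to the corepressors NCoR and SIN3 and to histone deacetylases. In the intestinal epithelium they are known for their part in secretory lineage differentiation. The best known members in human disease are MTG8 and MTG16, each of which is fused to RUNX1 in a form of leukemia.

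RNA was sequenced from duodenal crypts (day 0) and from the enteroids that grew from them after 24 h (day 1) and 72 h (day 3). Enteroids were grown in Matrigel with EGF, Noggin and R-spondin. Each time point had 3 wild-type (WT, *Mtgr1+/+*) and 3 *Mtgr1-/-* libraries, 1 per mouse, so that 6 mice gave 18 libraries. The mice were male and female littermates aged 8 to 12 weeks, and the *Mtgr1-/-* animals lacked MTGR1 in all tissues. The labels name no other allele or agent. Which exons the null allele changes is not given in the sources used here, so gene-level counts of *Cbfa2t2* do not check the genotype labels.

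The libraries held between 22035316 and 29661084 reads on genes, with a median of 26258539. Epithelial markers were present in every library (8 of 8 genes in the crypts). In the crypts the summed normalized count of 12 immune markers was 14821 in WT mouse 3, 1359 in WT mouse 1 and 1276 in WT mouse 2. It lay between 425 and 1678 in the 3 *Mtgr1-/-* crypt libraries. The sum of 6 Paneth cell markers was 44012 in the crypts of *Mtgr1-/-* mouse 2, against 1797 and 1351 in its group. The crypt results of *Cbfa2t3*, *Gfi1* and *Runx2*, whose WT maximum was in WT mouse 3, are also given without that library.

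*Cbfa2t2* (ENSMUSG00000038533.15) spans chr2:154436481-154539356 on the plus strand of GRCm38 and has 9 annotated transcripts. *Cbfa2t3* (ENSMUSG00000006362.16) lies at chr8:122625141-122699109 on the minus strand, with 7 transcripts, and *Runx1t1* (ENSMUSG00000006586.15) at chr4:13743436-13893649 on the plus strand, with 6. The reads were 50 bases long, so it matters whether 50-base stretches recur between these paralogs. None of the 8736 distinct 50-base words of the *Cbfa2t2* transcripts occurred in the other two members. The same held for the 8419 words of *Cbfa2t3* and the 7953 words of *Runx1t1*. The longest identical coding run was 29 bases, between *Cbfa2t3* and *Runx1t1*. The 50-base coding stretch most alike in all 3 genes codes for part of the MYND-type zinc finger, the domain that binds the corepressor NCoR. It is shown to let the reader see how far a single read separates the members, with capitals for the 41 bases identical in all 3:
Cbfa2t2: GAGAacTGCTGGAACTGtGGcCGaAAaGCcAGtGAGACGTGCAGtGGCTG
Cbfa2t3: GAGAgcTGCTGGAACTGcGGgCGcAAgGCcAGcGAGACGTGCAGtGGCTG
Runx1t1: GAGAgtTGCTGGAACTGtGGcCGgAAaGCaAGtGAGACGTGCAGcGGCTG

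These stretches join 2 coding exons each, at chr2:154531410-154531412 and chr2:154534884-154534930 (exons 10 and 11, plus strand), at chr8:122633318-122633320 and chr8:122630930-122630976 (exons 11 and 12, minus strand), and at chr4:13881238-13881240 and chr4:13889612-13889658 (exons 10 and 11, plus strand). Even here *Cbfa2t2* differed from *Cbfa2t3* at 6 bases and from *Runx1t1* at 5, and *Cbfa2t3* differed from *Runx1t1* at 8. Outside the family, 601 words of *Cbfa2t2* (6.88%) recurred in other genes, 573 of them in its processed pseudogene *Cbfa2t2-ps1*, which the tables do not list. Reads of the pseudogene could therefore have been counted as *Cbfa2t2*. No word of *Cbfa2t3* or *Runx1t1* recurred elsewhere.

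The levels of the 3 genes differed widely. On the CPM scale, a gene's reads relative to all reads on genes in its library, *Cbfa2t2* reached 22.7 ± 2.01 in WT crypts, 31.5 ± 0.54 in WT day 1 enteroids and 35.1 ± 2.55 in WT day 3 enteroids (mean ± SD, n = 3 throughout). *Cbfa2t3* stood at 4.79 ± 1.18, 7.38 ± 2.06 and 8.41 ± 0.72 CPM in the same groups. *Runx1t1* was the lowest, with 0.53 ± 0.15, 0.96 ± 0.19 and 1.07 ± 0.27 CPM. *Cbfa2t2* ranked on average at the 63.0 percentile of all listed genes in WT crypts, *Cbfa2t3* at 43.6 and *Runx1t1* at 28.8. The tables were normalized separately, so levels at different time points are given as a description without a test.

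Between genes, levels were compared per kilobase of the longest annotated transcript. On that scale *Cbfa2t2* made up 83.9% ± 2.79 of the family's summed level in WT crypts, 82.3% ± 3.44 in WT day 1 enteroids and 81.9% ± 1.11 in WT day 3 enteroids. *Cbfa2t3* made up 14.1% ± 3.28, 15.2% ± 3.83 and 15.6% ± 1.63 of it, and *Runx1t1* 1.97% ± 0.52, 2.49% ± 0.52 and 2.46% ± 0.53. In *Mtgr1-/-* samples the share of *Cbfa2t2* RNA was higher in every library, at 96.1% ± 2.81, 93.2% ± 1.27 and 91.7% ± 1.16. The share of *Cbfa2t3* in these was 3.65% ± 2.81, 6.83% ± 1.27 and 8.24% ± 1.21. The family's summed level was 4.45 ± 0.34 CPM per kilobase in WT and 3.89 ± 0.83 in *Mtgr1-/-* crypts. It was 6.31 ± 0.17 and 5.86 ± 1.17 on day 1, and 7.06 ± 0.46 and 5.71 ± 0.57 on day 3. The WT and *Mtgr1-/-* sums did not overlap on day 3 and overlapped in crypts and on day 1. These sums depend on CPM, which scales libraries to their totals. On day 3 that scaling moved the median log2 genotype difference of all genes from 0.00 to -0.20. It moved that of *Cbfa2t2* from 0.06 to -0.15. In normalized counts on day 3, groups did not overlap for 68.8% of all genes tested.

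**Figure D1:**
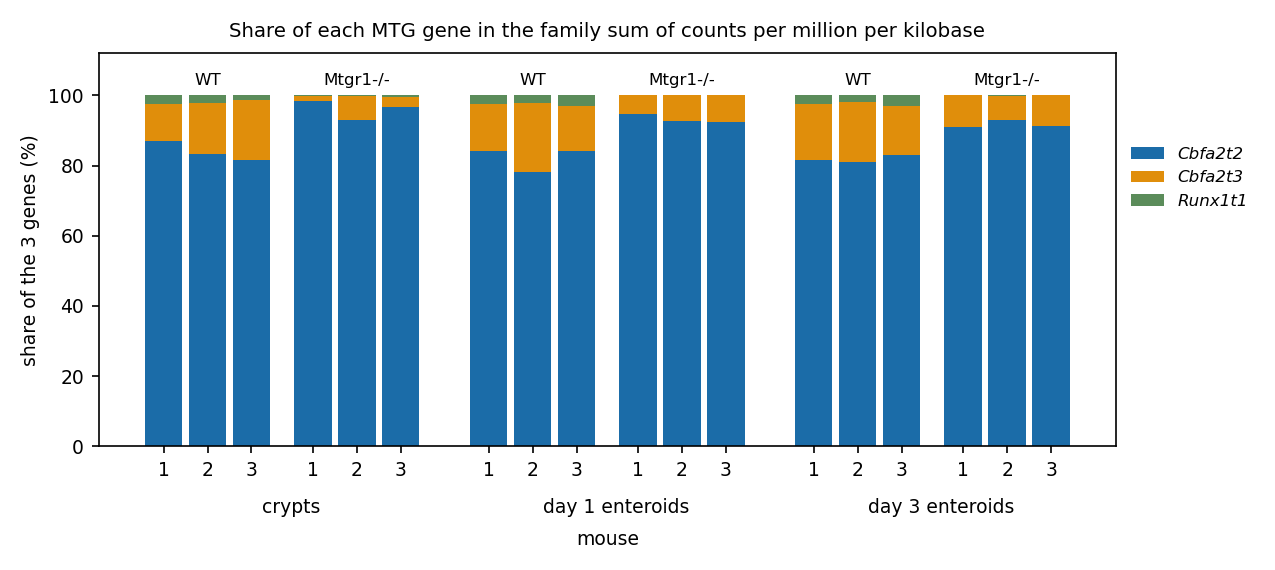
Share of *Cbfa2t2*, *Cbfa2t3* and *Runx1t1* in the family's summed CPM per kilobase (y axis, percent), with 1 bar per mouse for each genotype and time point. *Cbfa2t2* takes 78.3% to 87.0% of each WT bar and 90.9% to 98.5% of each *Mtgr1-/-* bar.

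The genotype comparison asks how the family's own RNA levels stood when MTGR1 was lost. *Cbfa2t3* fell in *Mtgr1-/-* samples at all 3 time points, though its crypt call was lost in 5 of 6 fits with 1 library left out. *Runx1t1*, where it could be tested, fell to 0 or near it. It reached the mean that the test required through the WT libraries alone. *Cbfa2t2* RNA itself passed the test at no time point. Differences are log2 values, *Mtgr1-/-* minus WT, from limma on log2(normalized count + 1) with Benjamini-Hochberg adjustment over all genes of a table, and ± stands for the standard error (SE) there. Counts are given as mean ± SD (n = 3). The test took genes whose mean in a table was 10 or more, which 2 members reached in crypts and all 3 in enteroids.

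*Cbfa2t2*, the gene targeted in these mice, still had reads in every *Mtgr1-/-* library. Gene-level counts do not show whether its transcript was intact. Crypt libraries gave normalized counts of 614, 523 and 595 in WT mice 1 to 3, and 697, 466 and 534 in *Mtgr1-/-* mice 1 to 3. The genotypes overlapped, and the difference was -0.05 ± 0.17 with a 95% interval from -0.44 to 0.34 (adjusted p = 0.917). On day 1 the counts were 788, 710 and 757 in WT and 1160, 1008 and 789 in *Mtgr1-/-* enteroids. Every *Mtgr1-/-* value lay above every WT value, though *Mtgr1-/-* mouse 3 lay just above WT mouse 1. Groups did not overlap for 68.1% of all genes tested on day 1. The difference was 0.37 ± 0.14 (95% interval 0.04 to 0.71, adjusted p = 0.0557). It passed the threshold with mouse number as a block (adjusted p = 0.0399), and without *Mtgr1-/-* mouse 3 (0.53, adjusted p = 0.00765). With libraries scaled to their totals it was 0.05 (adjusted p = 0.787). On day 3 the counts were 869, 774 and 883 in WT and 892, 976 and 766 in *Mtgr1-/-* enteroids, which overlapped, with a difference of 0.06 ± 0.11 (95% interval -0.20 to 0.31, adjusted p = 0.686). The p-values do not show that the levels were equal, and the intervals give the sizes that these libraries allow.

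*Cbfa2t3*, whose product MTG16 binds many of the same partners as MTGR1, was lower in every *Mtgr1-/-* library than in every WT library of the same time point. WT crypts of mice 1 to 3 held normalized counts of 93.9, 116 and 157, against 12.2, 42.8 and 19.3 in *Mtgr1-/-* crypts. The WT maximum and the *Mtgr1-/-* maximum belonged to the 2 crypt libraries that stood apart in immune and Paneth cell markers. The difference was -2.40 ± 0.47 (95% interval -3.51 to -1.29, adjusted p = 0.0365). Over the groups, 351 WT reads stood against 77 *Mtgr1-/-* reads, a 4.83-fold ratio once depth was accounted for (95% interval 3.77 to 6.27, counting error only). In crypts 3.15% of the 12980 genes tested were called lower in *Mtgr1-/-* mice, and 25.5% of them had groups that did not overlap. The direction held when any 1 library was left out, with differences from -2.88 to -2.01. The call was lost in 5 of those 6 fits: without WT mouse 1 (adjusted p = 0.108), mouse 2 (0.123) or mouse 3 (0.0828), and without *Mtgr1-/-* mouse 1 (0.0875) or mouse 3 (0.114). Without *Mtgr1-/-* mouse 2 it was kept (adjusted p = 0.0124). The edgeR quasi-likelihood test on recovered reads did not reach the threshold (-2.34, adjusted p = 0.13), while DESeq2 did (adjusted p = 0.00913).

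On day 1 the *Cbfa2t3* counts were 157, 224 and 143 in WT and 82.8, 101 and 82.7 in *Mtgr1-/-* enteroids. The difference was -0.95 ± 0.21 (95% interval -1.44 to -0.45, adjusted p = 0.00634), and 558 WT reads stood against 253 (1.91-fold, interval 1.65 to 2.23). On day 3 the counts were 214, 205 and 185 in WT and 113, 90.5 and 92.1 in *Mtgr1-/-* enteroids. The difference was -1.03 ± 0.15 (95% interval -1.38 to -0.68, adjusted p = 0.000839), and 660 reads stood against 272 (2.06-fold, interval 1.78 to 2.38). Both calls were kept when any 1 library was left out. Of all genes tested, 28.9% were called lower in *Mtgr1-/-* enteroids on day 1 and 29.1% on day 3, and groups did not overlap for 68.1% and 68.8%. A call in enteroids therefore set a gene less apart than a call in crypts. Scaling libraries to their totals moved the share of calls that were higher from 50.9% to 28.3% on day 1 and from 50.7% to 35.2% on day 3, and both *Cbfa2t3* calls were kept.

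*Runx1t1*, the member with the lowest level, was detected in all 9 WT libraries and nearly absent from the *Mtgr1-/-* ones. Crypts of WT mice 1 to 3 gave normalized counts of 17.2, 12.9 and 10.4, from 18, 13 and 9 reads. They were 0.94, 0.95 and 2.03 in *Mtgr1-/-* mice 1 to 3, from 1, 1 and 2 reads. The groups did not overlap, and the 40 WT reads against 4 gave a 10.6-fold ratio (95% counting interval 3.83 to 40.8). The crypt mean of 7.40 over the 6 libraries lay below the minimum for the test, while the deposited pooled mean of the gene was 10.3. Without that minimum the difference was -2.66 (adjusted p = 0.0247). The edgeR quasi-likelihood test gave adjusted p = 0.0201 on the recovered reads of all 6 libraries and 0.0819 without WT mouse 2.

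In day 1 enteroids *Runx1t1* stood at 21.9, 18.7 and 27.7 in WT, from 75 reads in all, and at 0 in each *Mtgr1-/-* library. Taking 3 reads over the group as the limit that a count of 0 allows, it was at least 21.7-fold lower. The fitted difference was -4.55 ± 0.53 (adjusted p = 0.000441) and depends on the added count of 1. On day 3 it stood at 26.0, 18.7 and 31.9 in WT, from 83 reads, and at 0, 0.99 and 0 in *Mtgr1-/-* enteroids, from 1 read in mouse 2. The read ratio was 70.4 with an interval from 12.3 to 2814, and the fitted difference was -4.37 ± 0.53 (adjusted p = 0.000318). At these levels *Runx1t1* passed the minimum through the WT libraries alone, so these calls say little beyond the counts themselves.

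**Figure D2:**
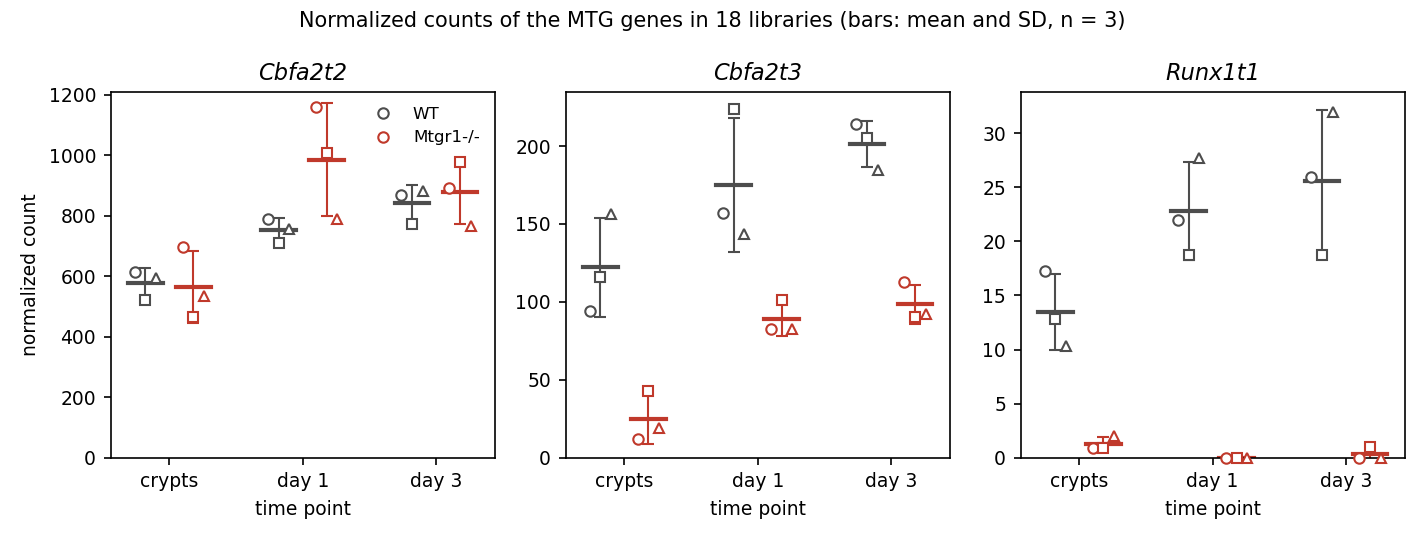
Normalized counts (y axis, linear from 0, scaled within each time point) of the 3 members in WT and *Mtgr1-/-* libraries at each time point, with circles, squares and triangles for mice 1, 2 and 3 and bars for the mean and SD. *Cbfa2t3* and *Runx1t1* separate by genotype at each time point (for *Cbfa2t3* in crypts, at most 42.8 in *Mtgr1-/-* and at least 93.9 in WT), while *Cbfa2t2* overlaps in crypts and on day 3.

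**Figure D3:**
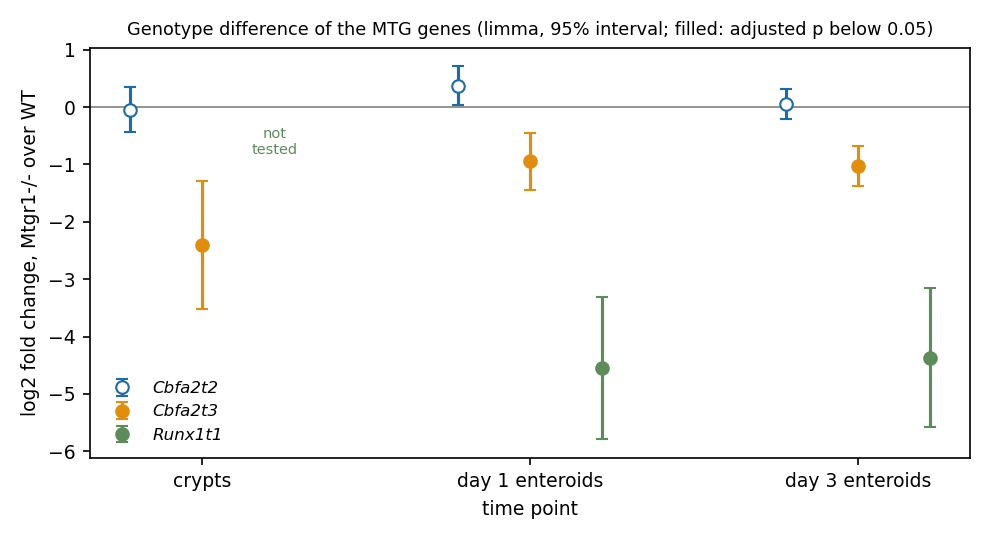
Log2 difference, *Mtgr1-/-* minus WT, of each member tested at each time point (x axis), with bars for the 95% interval of the limma fit. The *Cbfa2t2* intervals include 0 in crypts and on day 3, those of *Cbfa2t3* run from -3.51 to -1.29, -1.44 to -0.45 and -1.38 to -0.68, and *Runx1t1* has no crypt value because it was not tested there.

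Because these were bulk samples, fewer cells that express a gene and less of its RNA per cell cannot be told apart. Markers of several cell types also differed between genotypes. Of all genes tested, 1.58% were called higher and 3.15% lower in crypts. These shares were 30% and 28.9% on day 1, and 29.9% and 29.1% on day 3. Groups did not overlap for 25.5% of genes in crypts, 68.1% on day 1 and 68.8% on day 3. All 12 enteroendocrine markers fell in *Mtgr1-/-* samples at each time point, with median differences of -5.35, -5.50 and -5.11. Their summed normalized count was 7514 to 12951 in WT and 207 to 353 in *Mtgr1-/-* crypts, 8225 to 10903 and 85.1 to 224 on day 1, and 10795 to 11114 and 135 to 387 on day 3. *Neurod1*, *Neurog3*, *Insm1*, *Isl1* and *Nkx2-2* were at 0 in the crypts of *Mtgr1-/-* mouse 1, and *Isl1* and *Nkx2-2* in those of mouse 3. All 6 goblet cell markers tested in crypts also fell (summed count 144146 to 167519 in WT, 4569 to 7478 in *Mtgr1-/-*), and so they did on day 1 and day 3. The goblet list held 7 genes, and *Muc2* was not listed under that symbol at any time point. Of the 6 Paneth cell markers none was called in crypts (median difference -4.90), where *Mtgr1-/-* mouse 2 stood apart, and all 6 fell on both enteroid days. Tuft cell markers went the other way in crypts, with sums of 1407 to 1560 in WT and 2031 to 6609 in *Mtgr1-/-* mice and 0 of 6 called (median 1.71), and 5 of 6 fell on each enteroid day. The sum of 5 secretory progenitor markers was 1.28-fold, 2.35-fold and 2.62-fold lower in *Mtgr1-/-* crypts, day 1 and day 3 enteroids, without overlap. Of these markers 3, 4 and 5 were called lower. Of 8 epithelial markers 0 were called in crypts, and on each enteroid day 5 were called higher and 1 lower. The sum of endothelial markers overlapped in crypts and was 4.02-fold and 4.49-fold lower in *Mtgr1-/-* enteroids on day 1 and day 3, with 1 of 2 tested markers called lower on each day. *Cdh5*, *Kdr* and *Emcn* were at 0 in every day 1 library, and *Kdr* and *Emcn* in every day 3 library. The enteroid sums thus rest on the other genes of the list and do not show that endothelial cells were present. Of the 12 immune markers none was called in crypts, with a median difference of -1.74. On day 3 the immune sum was 57.0 to 68.7 in WT enteroids and 115, 118 and 614 in *Mtgr1-/-* enteroids of mice 1 to 3. The part of these cell types in the members' differences was not tested.

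Ordered by level, the groups showed where neighbours were separate. For *Cbfa2t2* the 4 enteroid groups, from 31.5 to 35.1 CPM, overlapped each with the next. The lowest of them, WT day 1, did not overlap with *Mtgr1-/-* crypts (22.8 ± 5.38 CPM), which in turn overlapped with WT crypts (22.7 ± 2.01 CPM). *Cbfa2t3* ran from WT day 3 (8.41) through WT day 1 (7.38), WT crypts (4.79), *Mtgr1-/-* day 3 (3.59 ± 0.65) and *Mtgr1-/-* day 1 (3.02 ± 0.62) to *Mtgr1-/-* crypts (1.01 ± 0.69). Of neighbours in that order, only *Mtgr1-/-* day 1 enteroids and *Mtgr1-/-* crypts did not overlap. *Runx1t1* ran from WT day 3 and WT day 1, which overlapped, to WT crypts, then *Mtgr1-/-* crypts (0.05 ± 0.02 CPM) and the *Mtgr1-/-* enteroids, with no overlap at these 3 steps. At the last step the nearest libraries held 1 read each (0.0392 CPM in crypts and 0.0337 CPM on day 3). Library depth alone set these 2 apart. In WT mice all 3 genes had their highest mean on day 3 and their lowest in crypts.

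A ratio of 2 members within a library does not depend on how libraries were scaled. The log2 ratio of *Cbfa2t3* to *Cbfa2t2* was -2.70, -2.16 and -1.92 in WT crypts and -5.72, -3.41 and -4.72 in *Mtgr1-/-* crypts. It was -2.32, -1.66 and -2.39 in WT and -3.79, -3.30 and -3.24 in *Mtgr1-/-* day 1 enteroids, and -2.02, -1.91 and -2.25 against -2.97, -3.42 and -3.04 on day 3. No library crossed the gap between genotypes at any time point. The genotype differences of this ratio were -2.36, -1.32 and -1.09, each with an exact two-sided permutation p = 0.1, the smallest that 3 against 3 libraries allow (adjusted p = 0.1125 over 9 comparisons). The ratio of *Runx1t1* to *Cbfa2t2* differed by -2.61, -4.93 and -4.42, again without overlap and with the same smallest exact p. The ratio of *Runx1t1* to *Cbfa2t3* overlapped in crypts, where the genotypes differed by -0.25 (exact permutation p = 0.7). It differed by -3.61 on day 1 and -3.34 on day 3 without overlap (exact permutation p = 0.1 each). All differences of ratios with *Runx1t1*, which was at or near 0 in *Mtgr1-/-* libraries, depend on the added count.

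Within mice, no ratio passed a test of change between time points over the 6 mice of both genotypes. Of 9 comparisons the smallest exact sign-flip p was 0.125 (adjusted p = 0.328), for *Cbfa2t3* to *Cbfa2t2* from crypts to day 1. That ratio was higher on day 1 in 5 of 6 mice, by a mean of 0.66, with 0.14 ± 0.53 in the WT and 1.17 ± 0.94 in the *Mtgr1-/-* mice (SD, n = 3). The exact test over 6 mice can reach p = 0.031 at best. It pools the genotypes, whose means went opposite ways for some ratios. From crypts to day 1 the ratio of *Runx1t1* to *Cbfa2t2* moved by 0.34 ± 0.56 in WT and by -1.98 ± 0.25 in *Mtgr1-/-* mice, and that of *Runx1t1* to *Cbfa2t3* by 0.21 ± 1.09 and -3.15 ± 0.83. For each of these the exact permutation p between genotypes was 0.1, the smallest possible, and 0 of 3 *Mtgr1-/-* mice went up. These values depend on the added count, since *Runx1t1* was at 0 in *Mtgr1-/-* enteroids on day 1.

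**Figure D4:**
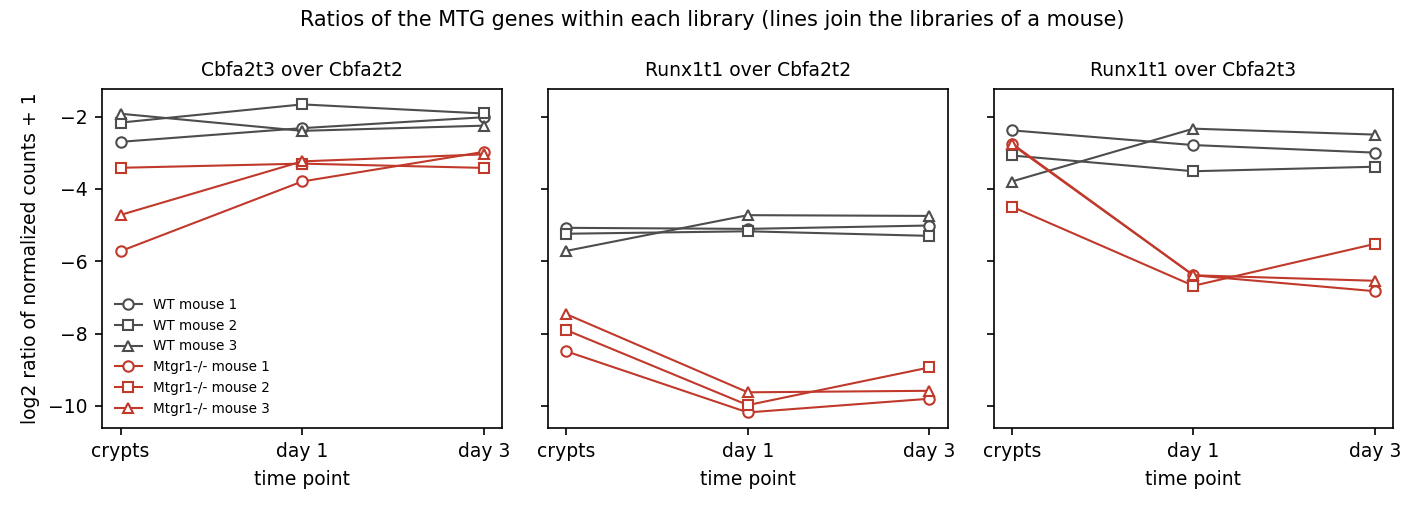
Log2 ratio of the normalized counts (+1) of 2 members within a library (y axis) at each time point, with 1 line per mouse, WT in gray and *Mtgr1-/-* in red. For *Cbfa2t3* to *Cbfa2t2* the WT lines stay between -2.70 and -1.66 and the *Mtgr1-/-* lines between -5.72 and -2.97, with no crossing at any time point.

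Whether the genotype difference itself changed between time points was tested in 1 limma fit over the 18 libraries with mouse as a random effect, on the 12145 genes that passed the minimum in all 3 tables. The *Cbfa2t3* difference was smaller in size in enteroids than in crypts, by 1.46 ± 0.46 on day 1 (adjusted p = 0.020) and by 1.37 on day 3 (adjusted p = 0.0343). Of all genes, 41.4% and 31.6% passed these 2 tests. Between day 1 and day 3 the *Cbfa2t3* difference moved by -0.08 (adjusted p = 0.984), and 0.0329% of genes passed. For *Cbfa2t2* the difference moved by 0.42 from crypts to day 1 (adjusted p = 0.128), by 0.10 from crypts to day 3 (adjusted p = 0.747) and by -0.32 from day 1 to day 3 (adjusted p = 0.796). Both *Cbfa2t3* changes were lost with libraries scaled to their totals (1.11, adjusted p = 0.0754, and 1.15, adjusted p = 0.0808). The day 1 change was also lost without WT mouse 1 or 3 or *Mtgr1-/-* mouse 1 or 3 (highest adjusted p = 0.114). The day 3 change was kept in none of the leave-one-out fits but the one without *Mtgr1-/-* mouse 2.

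Genes for 31 partners of the family were described beside it: corepressor subunits, deacetylases, E proteins, stem cell leukemia (SCL) complex genes, zinc finger, Notch and Wnt factors, RUNX subunits and a protein kinase A subunit. In crypts 27 were tested, with 1 called higher and 1 lower in *Mtgr1-/-* mice, where 1.58% of all genes were called higher and 3.15% lower. On day 1 it was 4 higher and 10 lower of 24, beside 30% and 28.9% of all genes. On day 3 it was 4 higher and 11 lower of 24, beside 29.9% and 29.1%. The partners' median differences were -0.11, -0.24 and -0.25 in crypts, on day 1 and on day 3, beside 0.01, -0.01 and 0.00 over all genes tested.

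The corepressor core that MTG proteins recruit was mixed. *Hdac3*, the deacetylase of the NCoR complex, differed by 0.20, -0.09 and -0.12 and was called at no time point. *Ncor1*, the NCoR scaffold, rose on day 1, from 6971 ± 501 to 10585 ± 1086 normalized counts (0.60 ± 0.11, adjusted p = 0.00227). In the SIN3 group, *Hdac2* fell by 0.91 on day 1 and by 0.78 on day 3, from 2686 ± 72.7 to 1434 ± 152 and from 2929 ± 69.4 to 1720 ± 232. *Sin3b*, a scaffold of the SIN3 complex, rose on day 1 (0.64 ± 0.12).

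Of the DNA-binding partners, *Gfi1* showed the largest falls. *Gfi1*, which also stands in the list of secretory progenitor markers, encodes a zinc finger repressor that takes part in secretory cell development. It stood at 120 ± 81.8 in WT and 16.2 ± 1.04 in *Mtgr1-/-* crypts (-2.61 ± 0.48, adjusted p = 0.0296). The WT crypt counts were 87.2, 59.4 and 213 in mice 1 to 3, and without mouse 3 the difference was -2.09 (adjusted p = 0.0212). The call was lost in 4 of 6 leave-one-out fits (highest adjusted p = 0.106). It fell from 87.3 ± 23.3 to 3.91 ± 3.4 on day 1 (-4.37) and from 92.5 ± 9.18 to 7.11 ± 4.23 on day 3 (-3.71). On both days *Gfi1* passed the minimum through the WT libraries alone. *Gfi1b*, its paralog, was called higher in crypts (8.31 ± 2.23 and 61.5 ± 30.9, adjusted p = 0.0404), a call lost in 5 of 6 leave-one-out fits. *Gfi1b* passed the minimum there through the *Mtgr1-/-* libraries alone. The E protein genes *Tcf3* and *Tcf12* fell on day 1 (-0.85 and -0.42) and on day 3 (-0.63 and -0.34), while *Tcf4* differed by -0.13 and -0.35 without a call. *Bcl6*, a zinc finger repressor, rose on day 1 (0.67 ± 0.12) and on day 3 (0.42 ± 0.10). *Ldb1*, a bridging factor of the SCL complex, fell on day 3 by 0.66.

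*Runx2* and *Runx1*, which encode RUNX transcription factors, rose on day 3. *Runx2* went from 3.96 ± 4.57 to 41.9 ± 10.6 normalized counts (3.63 ± 0.77, adjusted p = 0.00432), after -1.57 in crypts (adjusted p = 0.359) and -0.94 on day 1 (adjusted p = 0.115). On day 3 *Runx2* passed the minimum through the *Mtgr1-/-* libraries alone, and its fitted difference ran from 2.11 to 4.88 over 12 alternatives. Its WT crypt counts were 40.2, 29.7 and 253, and without WT mouse 3 the crypt difference was -0.62, given without a test. *Runx1* went from 132 ± 14.4 to 209 ± 30.1 (0.65 ± 0.16). With libraries scaled to their totals the day 3 calls of *Runx1* (adjusted p = 0.0572) and *Bcl6* (adjusted p = 0.151) were lost.

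**Figure D5:**
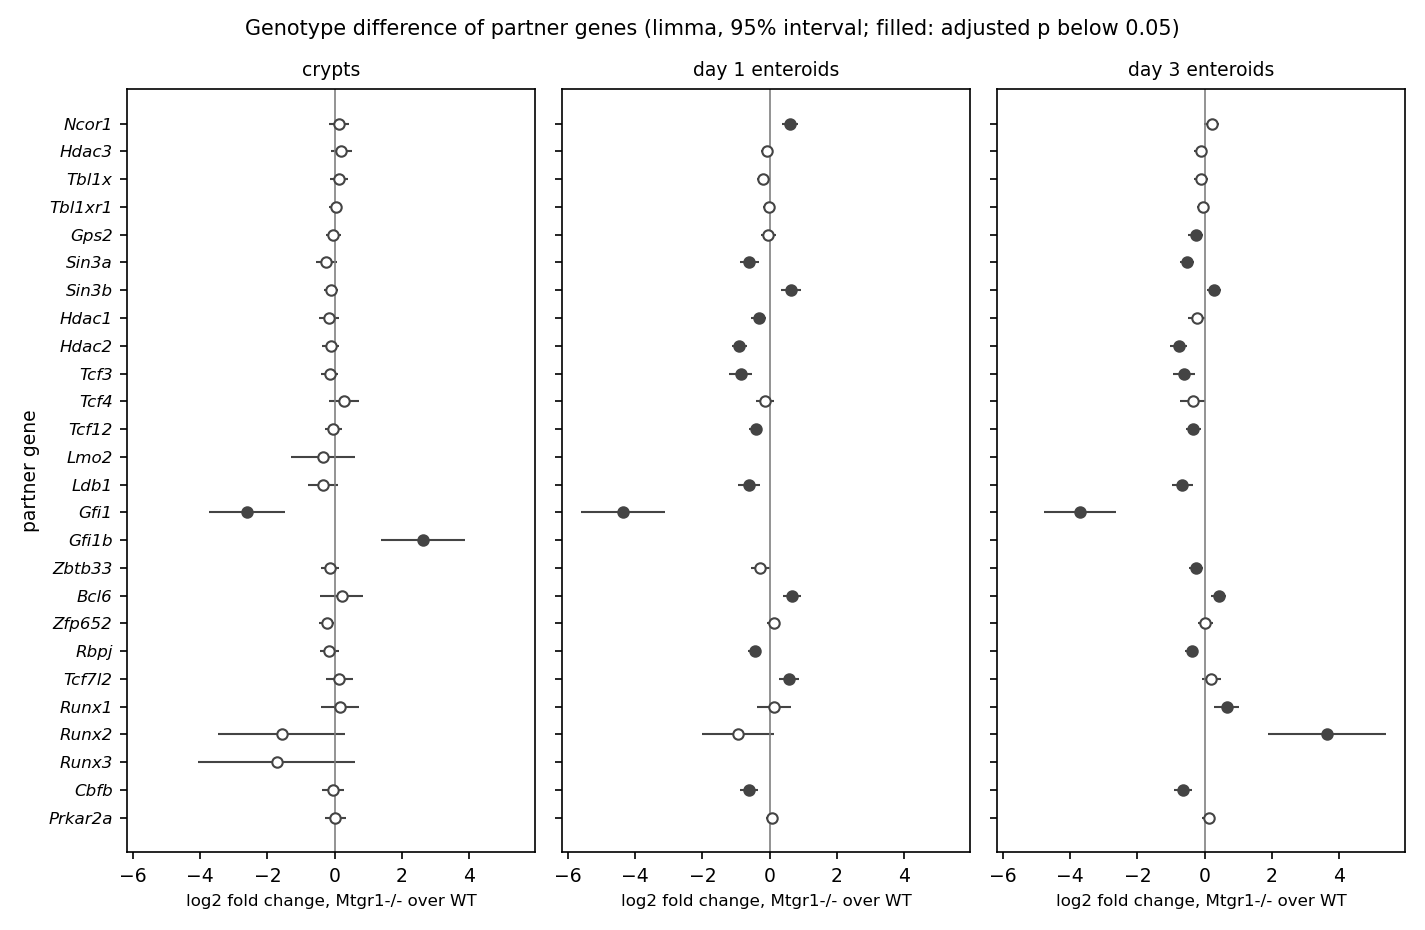
Log2 difference, *Mtgr1-/-* minus WT, of partner genes tested (x axis), grouped by list, in crypts and in day 1 and day 3 enteroids, with filled symbols for an adjusted p below 0.05. *Gfi1* lies farthest to the left at each time point (-2.61, -4.37 and -3.71), and *Runx2* lies farthest to the right on day 3 (3.63).

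The genes whose levels moved most like a member's over the 18 libraries were ranked by Pearson's r of log2(CPM + 1) among the 12145 genes, as a description. For *Cbfa2t3* they were *Cbx7* (r = 0.935), *Hacd1* (0.928), *Tmem63a* (0.925), *Ggh* (0.925) and *Rap1gap2* (0.923). With the mean of each of the 6 groups subtracted, r was 0.872 for *Cbx7*, 0.546 for *Hacd1*, 0.20 for *Tmem63a*, 0.411 for *Ggh* and 0.326 for *Rap1gap2*. The ranking used the libraries of both genotypes, so genes picked for *Cbfa2t3* were bound to tend lower in *Mtgr1-/-* samples. Their falls are therefore no separate result. *Hacd1* fell in *Mtgr1-/-* samples at the 3 time points (-2.71, -2.15 and -2.16), and *Cbx7*, which encodes a Polycomb subunit, fell by 0.89 on day 1 and 0.83 on day 3 but had no call in crypts (-0.79, adjusted p = 0.199). For *Cbfa2t2* they were *Sos1* (0.935), *Alkbh5* (0.909), *Rap2a* (0.906), *Slc19a2* (0.894) and *Lrch3* (0.894). After the group means were subtracted, r was 0.813 for *Sos1*, 0.717 for *Alkbh5*, 0.821 for *Rap2a*, 0.648 for *Slc19a2* and 0.867 for *Lrch3*. The r of *Cbfa2t2* with *Cbfa2t3* was 0.448 over the libraries and -0.199 with group means subtracted. The points share libraries, mice and sequencing depth.

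The nearest listed genes were followed in the same fits. Beside *Cbfa2t3*, *Trappc2l* (8481 bases away) and *Galns* (13678 bases away) rose on day 1, by 0.67 each, and on day 3 by 0.65 and 0.50, while *Acsf3* on the other side had no call. The antisense gene *Gm10612*, which overlaps the 5′ end of *Cbfa2t3*, had group means from 0 to 0.71 normalized counts. Next to *Cbfa2t2*, *Cdk5rap1* (63471 bases away) had no call at any time point. The nearest listed gene before *Runx1t1*, *Triqk*, lay 759883 bases away. It stood at 21.6 ± 4.31 in WT and 0.65 ± 0.57 in *Mtgr1-/-* crypts (-3.83, adjusted p = 0.0237), and was too low to test in enteroids. Like *Runx1t1* it passed the minimum through the WT libraries alone. Its fitted difference ran from -5.46 to -1.77 over 12 alternatives, and the call was lost in 4 of them, mouse number as a block among them (adjusted p = 0.0531). *Fam92a*, the next gene, fell on day 1 (-1.30, adjusted p = 0.00288), and *Otud6b* on the other side had no call.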

How the data were processed

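Stranded mRNA libraries were read as single 50-base reads from 18 samples. Per the labels, the authors used fastp 0.20.0, Salmon 1.3.0 and DESeq2 1.26.0, and the mouse build was GRCm38. The deposited values are a signal of normalized gene counts, which is each gene's count divided by 1 factor per library within a time point's table. The authors' own columns of log2 fold changes, their SEs, test scores and p-values were deposited in the same tables and were not used. Their mean count (a pooled signal) was only checked against the mean of the 6 libraries, and lay within 1% of it for 72.8%, 63.2% and 68.1% of genes in crypts, on day 1 and on day 3. Why they differ is not given in the sources used here.

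The smallest steps among low values gave back whole reads for 100% of values in all 18 libraries (tolerance 1e-06). In 2 libraries (WT crypts of mouse 2, *Mtgr1-/-* day 3 enteroids of mouse 2) the step lay close to 1, so the count tests were run without and with them. CPM used reads on genes. Intervals on read ratios cover counting error only.

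The 3 members and the lists of partners and markers were chosen with earlier results of these data known. Genotypes were compared in each table with limma 3.58.1 (R 4.3.3, trend, two-sided, threshold 0.05). The fits were tested on simulated counts, where 178, 176 and 181 of 200 genes changed 2-fold were recovered for crypts, day 1 and day 3. This checks the fits and does not give their power in these libraries, some of which stood apart in cell type markers. Named besides the members were the 3 largest rises and falls among partners at each time point, *Hdac3*, *Ncor1*, *Tcf3*, *Tcf4*, *Tcf12* and *Gfi1*, the 5 genes most like a member, and the 2 nearest listed genes on each side. Some genes that this rule names are not reported here. Alternatives were other pseudocounts, no minimum, no trend, quantile normalization, scaling to library totals, a mouse-number block, edgeR 4.0.16, DESeq2 1.42.0 and leaving out each library. The labels do not say that a mouse number pairs WT with *Mtgr1-/-* animals. Same-numbered libraries deviated together on day 1 (correlations of 0.116, 0.231 and 0.216) but not on day 3 (-0.007, -0.002 and -0.016) or for mouse 1 in crypts (0.076, beside 0.274 and 0.346).

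Levels between genes were set per kilobase of the longest transcript in GENCODE M21, which also gave the sequences. Gene-level counts join all transcripts of a gene, and *Cbfa2t3* has 2 annotated starts in RefSeq. P-values measure the spread between 3 mice per group.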

Additional observations from a re-analysis of the deposited data

Results flagged for a closer look

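The genotype difference of *Cbfa2t3* differed between time points by a test of the difference itself. From crypts to day 1 it changed by 1.46 on the log2 scale and from crypts to day 3 by 1.37, both toward 0 (limma, adjusted p = 0.020 and 0.0343). In normalized counts, WT went from 122 ± 31.8 to 175 ± 43.1 and 201 ± 15.0, and *Mtgr1-/-* from 24.8 ± 16.0 to 89.0 ± 10.8 and 98.4 ± 12.4 (SD, n = 3), each time point scaled in its own table. Both changes share the 6 crypt libraries, of which WT mouse 3 stood apart in immune markers and *Mtgr1-/-* mouse 2 in Paneth cell markers. Their part in the change was not tested. Without WT mouse 3 both changes lost their calls (adjusted p = 0.114 and 0.140), and without *Mtgr1-/-* mouse 2 both kept them. Over the 6 leave-one-out fits the day 1 change was lost in 4 and the day 3 change in 5, and total scaling lost both (adjusted p = 0.0754 and 0.0808).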

How the results depend on the processing

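Of 683 values recomputed under other settings 635 kept their direction, call or size, and of 479 with 1 library or mouse left out 414 did. These totals include the ratio tests. With 1 library or mouse left out, the exact permutation and sign-flip tests could reach p = 0.2 and p = 0.0625 at best. The genotype ratios could reach an exact permutation p = 0.1 at best with all libraries. Such values counted as kept unless their direction turned, so the totals overstate how far results held. The *Cbfa2t3* crypt call was lost without the trend (-2.40, adjusted p = 0.0562), with edgeR (-2.34, adjusted p = 0.13, and -2.31, adjusted p = 0.0516, on all 6 libraries, added after seeing the data) and in leave-one-out fits (-2.88 to -2.01), but not with DESeq2 (adjusted p = 0.00913). *Cbfa2t2* passed on day 1 with quantile normalization (0.37, adjusted p = 0.0471), the mouse-number block (0.37, adjusted p = 0.0399) and DESeq2 (0.39, adjusted p = 0.0391), and ranged from 0.25 to 0.53 with 1 library left out. On day 3 it turned to -0.024 with edgeR, -0.020 with DESeq2 and -0.15 with total scaling (added), and ran from -0.024 to 0.15 with 1 library left out, and in crypts from -0.21 to 0.082. The block changed no other call of a member, and of the other named genes that of *Triqk*. Genes called in crypts numbered 614, but 239 with edgeR, 1217 with DESeq2 (1426 on all 6 libraries) and 176 to 608 with 1 library left out. Total scaling moved the median of all genes to -0.33 on day 1 and -0.20 on day 3, with 28.3% and 35.2% of calls higher instead of 50.9% and 50.7%. It took the *Cbfa2t3* changes from crypts to 1.11 (day 1) and 1.15 (day 3), the *Cbfa2t2* change from crypts to day 3 to -0.13 and the *Cbfa2t3* change from day 1 to day 3 to 0.035. With 1 library left out these ran from 1.12 to 1.83, from 0.88 to 1.90, from -0.11 to 0.25 and from -0.26 to 0.069. The count of genes with a changed genotype difference was 3333 to 5549 (day 1) and 1657 to 3712 (day 3) with 1 library left out. From day 1 to day 3 it was 4, but 16 with a pseudocount of 8, 22 with total scaling and 0 to 879 with 1 library left out. The ratio of *Runx1t1* to *Cbfa2t3* in crypts turned to 0.87 with a pseudocount of 8 (-0.61 to 0.33 with 1 library left out), and its change from day 1 to day 3 to -0.090 (-0.17 to 0.15). The cause was not tested. Leaving out a WT library put *Runx1t1* below the minimum on day 1, so no value was had there. Depth limited *Runx1t1*, with at most 33 reads in a library.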
